A study of Mus musculus with 6 samples.

Results

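Interleukin-4 and interleukin-13 reach the nucleus through a short chain of proteins, and the 10 genes described here encode most of it: the transcription factor Stat6, the receptor chains Il4ra, Il13ra1, Il13ra2 and Il2rg, the cytokines Il4, Il13 and Il5, and Gata3 and Il17rb, which mark the lymphocytes that make those cytokines. They were chosen by name from 19949 genes, and all 10 were listed in at least 1 library. The data are RNA sequencing of colon tissue from BALB/c mice, 6 to 8 weeks old, all of which received 3% dextran sulfate sodium (DSS, a compound toxic to the colonic lining) for 3 days. One group of 3 samples was labelled STAT6-/- and the other group of 3 was labelled WT. The labels name no allele and do not say whether each sample is a separate animal, so a p-value reflects only how these samples vary, which could be technical variation. Colons without DSS are not analysed here.

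In this pathway IL-4 binds the IL-4 receptor alpha chain (Il4ra), which then pairs either with the common gamma chain (Il2rg) on blood cells or with Il13ra1 on epithelium, stroma and macrophages. IL-13 uses the Il4ra and Il13ra1 pair. Kinases of the JAK family bound to these chains phosphorylate the receptor tail, STAT6 docks there, is phosphorylated in turn and enters the nucleus as a dimer. Il13ra2 binds IL-13 tightly but has a short tail and is known mainly as a decoy. In the gut the cytokines come from T helper 2 cells and type 2 innate lymphoid cells (ILC2), whose identity depends on GATA3 and which respond to IL-25 through the receptor chain IL17RB.

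Of these 10 genes, 8 had enough counts to be tested. Il4ra, Il13, Gata3 and Il17rb rose and Stat6 fell in the STAT6-/- colons, by edgeR's quasi-likelihood test with Benjamini-Hochberg adjustment over all 15066 tested genes and a threshold of 0.05. That is 4 higher and 1 lower of 8, where 11.4% of all tested genes were higher and 11.5% lower (22.9% either way). The groups did not overlap for the same 5 genes, again 4 above and 1 below, where 22% of all tested genes lay above and 24.5% below (46.5% either way). Il13 had enough counts for the test only in the STAT6-/- group, so that its call was partly fixed by the filter. Il13ra1, Il13ra2 and Il2rg did not pass, and Il4 and Il5 were too rare to be tested. Whether a gene's level reflects more cells of a type or more RNA per cell cannot be told apart in whole tissue.

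**Figure D1:**
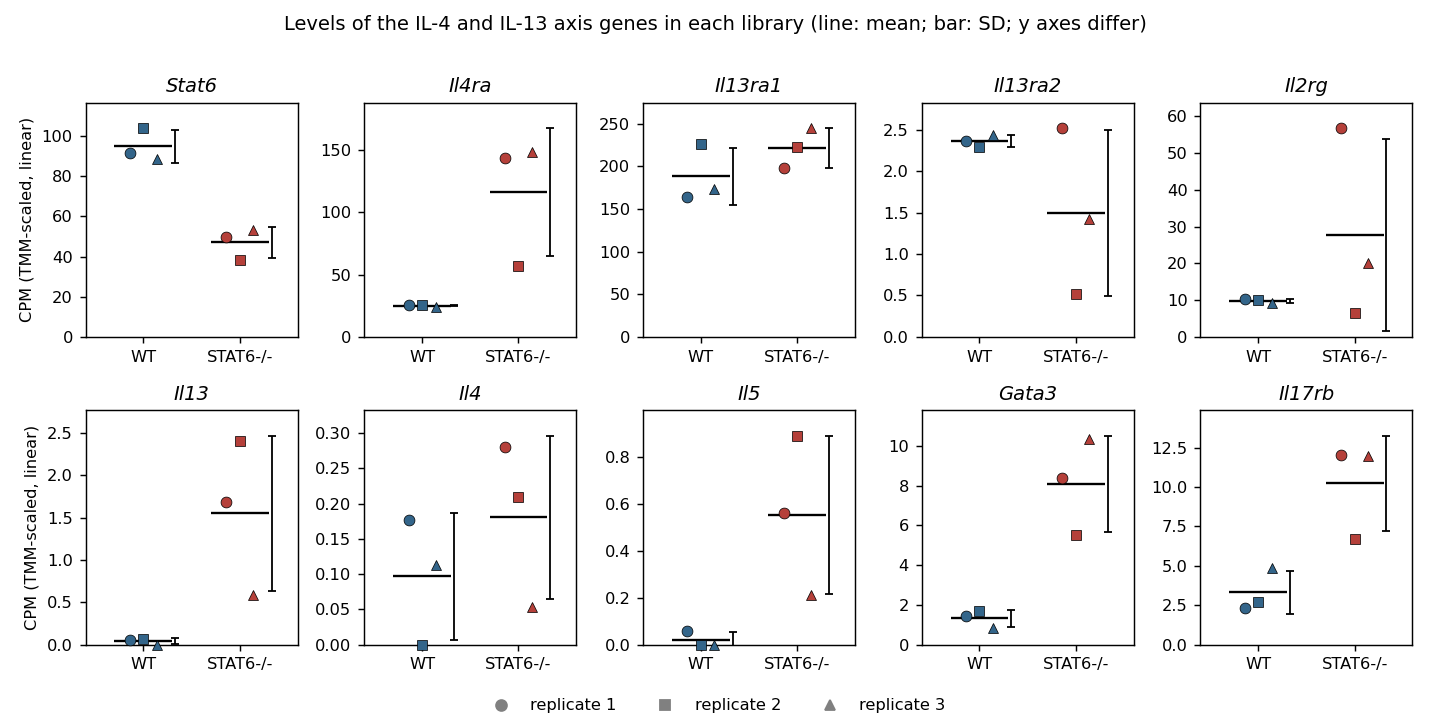
CPM (gene counts relative to all counts of a library, TMM-scaled, linear axis, a separate scale for each gene) of the 10 genes in each of the 3 WT and 3 STAT6-/- libraries, with the mean as a line and the SD as a bar. The groups do not overlap for Stat6, Il4ra, Il13, Il5, Gata3 and Il17rb, and STAT6-/- replicate 2 (square) is the lowest STAT6-/- library for Stat6, Il4ra, Il13ra2, Il2rg, Gata3 and Il17rb but the highest for Il13 and Il5.

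Several features of the samples touch all results below. The libraries held 17122315 to 19555450 counts. Y-linked genes were detected in each STAT6-/- library and Xist in each WT library, at summed levels of sex-linked genes of 167 to 179 and 352 to 545 CPM, so that genotype and sex cannot be told apart. The colon epithelium markers were present throughout (10 genes, summed 12360 to 22880 CPM). WT replicate 1 also held 2963 CPM of squamous epithelium markers such as Krt5, against 4.53 to 31.6 CPM in the other 5 libraries. Smooth muscle markers were lower in STAT6-/- (2301 to 5226 CPM) than in WT (8991 to 11120 CPM). Of these 7 genes 6 passed the edgeR threshold, where 11.5% of all tested genes were lower. STAT6-/- replicate 2 correlated best with WT replicate 1 (Spearman's rho over tested genes 0.953), and above its 2 fellow STAT6-/- libraries (0.946 and 0.94). The part of these differences in the results was not tested.

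The targeted gene came first. Stat6 (chromosome 10, 127642955 to 127660987, GRCm38, the assembly of mm10) had 49.9, 38.5 and 53.2 CPM in STAT6-/- replicates 1, 2 and 3, and 91.7, 104 and 88.8 CPM in WT. Stat6 reads were thus still present in each STAT6-/- library (1070, 737 and 1006 counts), but at a level below the lowest WT library. The log2 fold change was -1.01 ± 0.16 (SE; edgeR adjusted p = 0.0134), a 2.01-fold fall. All reads were assigned to 1 RefSeq transcript row, which gives no level per exon. With WT replicate 2 left out the adjusted p became 0.0725 and with WT replicate 3 left out 0.0721, while the log2 fold change stayed between -1.06 and -0.85 with any 1 library left out.

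Of the genes on either side of Stat6, none fell. Nab2, a corepressor of EGR transcription factors, shares 70 bases with the end of Stat6 on the opposite strand, so that reads there cannot be told apart. Nab2 stood at 19.1, 9.97 and 36.5 CPM in STAT6-/- and at 8.64, 8.38 and 9.93 in WT, with a log2 fold change of 1.28 ± 0.44 (SE) that did not pass (edgeR adjusted p = 0.0762). Of 11 listed neighbours 9 were tested, and 1 passed (22.9% of all tested genes did): Nemp1, a nuclear envelope protein, rose 2.03-fold (edgeR adjusted p = 0.0434). Nemp1 did not pass with upper quartile scaling (adjusted p = 0.0541) or by limma-voom (0.0535), while DESeq2 called 4 of the 9 neighbours higher (18.1% of all genes). The abundant brush border myosin Myo1a had a log2 fold change of 0.57 ± 0.23 (adjusted p = 0.11).

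The alpha chain of the receptor moved most among the receptor genes. Il4ra (chromosome 7, 125552271 to 125579474) stood at 143, 56.9 and 148 CPM in STAT6-/- and at 25.6, 25.6 and 24.3 CPM in WT. The WT libraries were nearly equal, and the lowest STAT6-/- library, replicate 2, was still above all of them. The log2 fold change was 2.21 ± 0.36 (SE; edgeR adjusted p = 0.0134), a 4.61-fold rise. It ran from 2.04 to 2.56 with 1 library left out, and leaving out WT replicate 2 or 3 raised the adjusted p to 0.0733 or 0.0767, respectively. Il4ra is itself known as a gene that IL-4 induces through STAT6.

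Il13ra1 (chromosome X, 36112108 to 36171262), the partner chain on non-blood cells, was the most abundant of the 10 genes and showed no change past the threshold. It stood at 198, 223 and 245 CPM in STAT6-/- and at 165, 227 and 174 CPM in WT, and the groups overlapped. Its log2 fold change was 0.23 ± 0.19 (SE; edgeR adjusted p = 0.373). With GC content and length trends removed from each library it was 0.65 and passed (adjusted p = 0.0486), in a fit that called 15.4% of all genes, and with the replicate block as well 0.66 without passing (adjusted p = 0.0849).

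The common gamma chain Il2rg (chromosome X, 101264385 to 101268255), shared by the receptors for several lymphocyte cytokines, varied widely among the STAT6-/- libraries. It stood there at 56.8, 6.42 and 20.1 CPM, and in WT at 10.3, 9.99 and 9.19 CPM. Replicate 1 was 8.84 times replicate 2, which itself lay below every WT library. The log2 fold change of 1.5 ± 0.68 (SE) did not pass (edgeR adjusted p = 0.147). It was 0.46 without STAT6-/- replicate 1, and 2.00 without STAT6-/- replicate 2, where it passed (adjusted p = 0.0147). The lymphocyte markers had the same order among these libraries: the 10 T cell markers summed to 135, 22.0 and 52.0 CPM and the 7 B cell markers to 344, 26.4 and 54.5 CPM, against 21.0 to 25.9 and 36.0 to 57.5 CPM in WT. Their part in the Il2rg values was not tested.

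The decoy receptor Il13ra2 (chromosome X, 147383478 to 147429192) was scarce. It stood at 2.52, 0.522 and 1.43 CPM in STAT6-/- and at 2.37, 2.30 and 2.44 CPM in WT, so that 2 of the 3 STAT6-/- libraries were below WT and replicate 1 was above it. The log2 fold change was -0.66 ± 0.54 (SE; edgeR adjusted p = 0.388). Its counts fell in 2 RefSeq transcript rows. The main row held 54, 4.48 and 27 counts in STAT6-/- and 39.5, 29.1 and 30.8 in WT, and the second row held 5.52 counts in STAT6-/- replicate 2, 7.90 and 12.2 in WT replicates 2 and 3, and none elsewhere. Fractional counts mean that RSEM divided reads that fit both rows, and row use was not compared between the groups. Il13ra1, Il2rg and Il13ra2 all lie on the X chromosome, where 27.5% of 484 tested genes passed, and for them too genotype and sex cannot be told apart.

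Per transcript length, the receptor chains changed their order. In WT the levels in FPKM (fragments scaled to transcript length and library size) were 48.6 ± 6.28 (SD, n = 3) for Il13ra1, 24.0 ± 0.786 for Stat6, 5.78 ± 0.291 for Il2rg, 4.74 ± 0.169 for Il4ra and 1.02 ± 0.0907 for Il13ra2. These 5 did not overlap one another. In STAT6-/- they were 59.7 ± 2.84 for Il13ra1, 23.0 ± 10.5 for Il4ra, 17.7 ± 17.6 for Il2rg, 12.6 ± 2.27 for Stat6 and 0.683 ± 0.494 for Il13ra2, and Il4ra, Il2rg and Stat6 overlapped. The ratio of Il13ra1 to Il4ra FPKM was 8.84, 12.2 and 9.83 in WT and 1.90, 5.39 and 2.27 in STAT6-/-, so the excess of Il13ra1 RNA over Il4ra RNA was smaller in each STAT6-/- library than in any WT library. The ratio of Il4ra to Il2rg was 0.795, 0.820 and 0.847 in WT, and 0.807, 2.83 and 2.36 in STAT6-/-. There replicate 1 matched WT and the other 2 libraries lay above it.

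**Figure D2:**
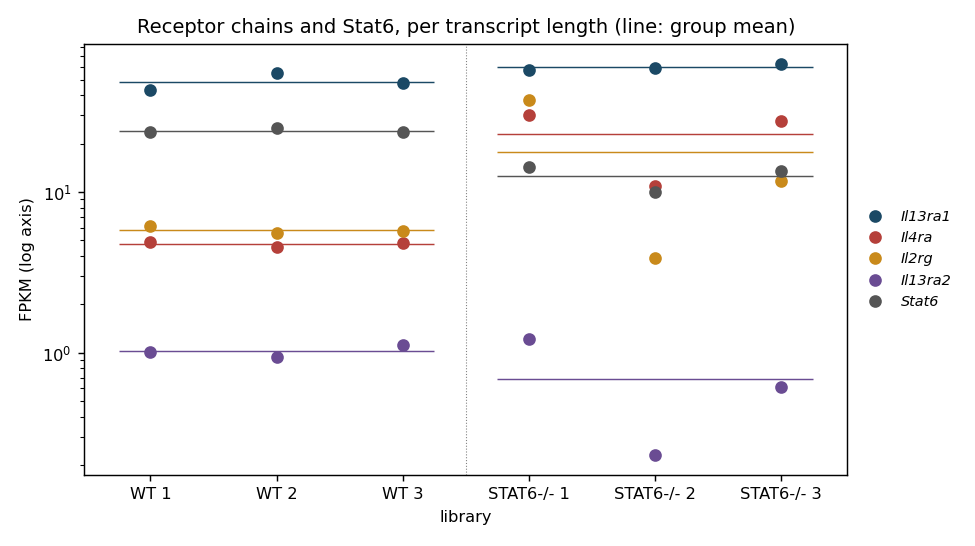
FPKM (log axis) of the receptor chains and Stat6 in each WT and STAT6-/- library, with the group mean as a line. Il13ra1 is highest in all 6 libraries, Il4ra lies below Stat6 in each WT library and above it in each STAT6-/- library, and Il2rg runs from 3.86 to 37.54 across the STAT6-/- libraries.

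The cytokines were rare in all libraries. Il13 (chromosome 11, 53631323 to 53634702) had 36, 46 and 11 counts in STAT6-/- and 1, 1 and 0 in WT, or 1.68, 2.40 and 0.582 CPM against 0.0591, 0.062 and 0. A count of 0 allows up to 3 counts, or 0.170 CPM in that library. Its groups did not overlap and the fitted log2 fold change was 5.07 ± 0.89 (SE; edgeR adjusted p = 0.0151). From the summed counts of 93 and 2, the ratio of STAT6-/- to WT was 39.6, with an exact 95% interval of 10.7 to 332 that covers counting error only. The log2 fold change ran from 4.53 to 5.50 in the 4 fits with 1 library left out that could test it, and leaving out WT replicate 2 or 3 raised the adjusted p to 0.0758 or 0.0767, respectively. On the log2(FPKM + 1) scale the difference was 1.11, since the added 1 exceeds the WT level.

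Il5 (chromosome 11, 53720794 to 53725103), the growth factor of eosinophils, had 12, 17 and 4 counts in STAT6-/- and 1, 0 and 0 in WT. The groups did not overlap. The summed counts of 33 and 1 gave a ratio of 28.1, with an exact 95% interval of 4.70 to 1143. Il5 missed the filter on low counts. With no filter its log2 fold change was 4.43 (edgeR adjusted p = 0.0346), in a fit that called 15.8% of 19877 genes. In the 4 fits with 1 library left out that could test it, the log2 fold change ran from 3.92 to 6.38, and it passed without STAT6-/- replicate 3 (adjusted p = 0.0251) but not without any 1 of the WT libraries. Il13 and Il5 had the same order over the STAT6-/- libraries, with replicate 2 highest and replicate 3 lowest.

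Il4 (chromosome 11, 53612460 to 53618665) was rarer still, and its groups overlapped. It had 6, 4 and 1 counts in STAT6-/- and 3, 0 and 2 in WT. The summed counts of 11 and 5 gave a ratio of 1.87 (exact 95% interval 0.600 to 6.88), and with no filter the edgeR adjusted p was 0.571. In STAT6-/- 10 of the 11 counts fell in the noncoding RefSeq transcript row and 1 in the coding row, while in WT 2 fell in the noncoding row and 3 in the coding row. Such numbers are too small to compare. No test was made of whether Il4 differed in its response from Il13 or Il5.

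These 3 cytokine genes lie together on chromosome 11. Il4 and Il13 are 12657 bases apart, and Il5 follows 86091 bases beyond Il13, with Rad50 between. Of the 9 listed genes around them 6 were tested and 1 passed, where 22.9% of all tested genes did: Kif3a, a kinesin subunit, fell 1.79-fold (edgeR adjusted p = 0.0213). Irf1, the interferon-regulated factor next to Il5, stood at 432, 375 and 457 CPM in STAT6-/- and 227, 335 and 186 in WT (adjusted p = 0.065). Its groups did not overlap. DESeq2 (18.1% of all genes higher), library size scaling (12.6%), log2(FPKM + 1) (10.4%) and log2(FPKM + 0.1) (11.2%) each gave 1 rise in this list.

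The sequences before the start of the cytokine and receptor genes are shown because they are where STAT6 and GATA factors are known to act. The 250 bases before each annotated start (RefSeq, GRCm38.p6, 5′ to 3′ on the gene's strand) were searched on both strands. STAT dimers bind TTCNNNGAA, and STAT6 also binds the wider TTCNNNNGAA. The GATA search took AGATAA and its variant TGATAA, with AGATAG as another form and TGATAG as the last one. Matches are in capitals. The 5 windows are Il13 at chr11:53634703-53634952 (minus strand), Il5 at chr11:53720544-53720793 (plus strand), Il4 from its upstream start at chr11:53618666-53618915 (minus strand), Il4 from its downstream start at chr11:53617339-53617588 (minus strand) and Il4ra at chr7:125552021-125552270 (plus strand).
Il13: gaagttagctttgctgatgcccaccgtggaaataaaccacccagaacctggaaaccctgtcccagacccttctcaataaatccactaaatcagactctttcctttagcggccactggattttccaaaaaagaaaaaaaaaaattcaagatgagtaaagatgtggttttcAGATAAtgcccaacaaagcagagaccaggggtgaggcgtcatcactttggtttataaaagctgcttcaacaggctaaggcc
Il5: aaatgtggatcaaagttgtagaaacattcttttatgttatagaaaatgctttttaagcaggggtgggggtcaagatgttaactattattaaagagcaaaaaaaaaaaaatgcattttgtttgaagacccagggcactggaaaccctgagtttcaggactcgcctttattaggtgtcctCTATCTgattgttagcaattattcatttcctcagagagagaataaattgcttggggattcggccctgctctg
Il4, upstream start: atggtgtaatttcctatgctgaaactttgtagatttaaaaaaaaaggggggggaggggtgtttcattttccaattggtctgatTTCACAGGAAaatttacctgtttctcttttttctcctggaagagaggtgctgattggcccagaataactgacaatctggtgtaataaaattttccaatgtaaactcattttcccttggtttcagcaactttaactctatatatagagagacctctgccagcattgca
Il4, downstream start: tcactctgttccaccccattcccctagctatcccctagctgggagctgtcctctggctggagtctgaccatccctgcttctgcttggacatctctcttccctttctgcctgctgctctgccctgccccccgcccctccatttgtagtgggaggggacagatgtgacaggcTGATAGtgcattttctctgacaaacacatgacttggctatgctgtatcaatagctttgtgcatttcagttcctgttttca
Il4ra: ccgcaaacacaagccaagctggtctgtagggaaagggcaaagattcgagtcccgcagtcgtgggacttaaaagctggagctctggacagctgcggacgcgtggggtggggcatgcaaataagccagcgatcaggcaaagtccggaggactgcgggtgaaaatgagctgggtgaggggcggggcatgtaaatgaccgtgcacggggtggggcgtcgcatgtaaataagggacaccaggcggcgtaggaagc

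Among the 11 windows of the 10 genes, TTCNNNNGAA occurred only in that of the upstream Il4 start, 158 to 167 bases before it, and TTCNNNGAA in none. Among all 32851 promoter windows of this length 5.85% held the former and 7.02% the latter. A GATA match lay 76 to 81 bases before the Il13 start, 67 to 72 before that of Il5 and 75 to 80 before the downstream Il4 start, and a further one lay in the Il13ra2 window. Such matches are common, being found in 26.5% of all windows. The window of Il4ra held no match to any of these motifs. These are letter matches in 1 short window per start and show no binding.

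Gata3 (chromosome 2, 9857078 to 9887953), the factor that directs the type 2 lymphocyte fate, stood at 8.40, 5.53 and 10.4 CPM in STAT6-/- and 1.42, 1.68 and 0.851 CPM in WT. All STAT6-/- libraries were above all WT libraries, and the spread within each group was similar (1.87-fold and 1.97-fold from lowest to highest). On the log2 scale the change was 2.62 ± 0.40 (SE; edgeR adjusted p = 0.0118), a 6.15-fold rise. It ran from 2.38 to 2.86 with 1 library left out, and leaving out WT replicate 2 or 3 raised the adjusted p to 0.0644 or 0.0721, respectively. On the log2(FPKM + 1) scale it was 1.32.

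Il17rb (chromosome 14, 29996168 to 30008896), the IL-25 receptor chain, stood at 12, 6.74 and 12 CPM in STAT6-/- and at 2.31, 2.73 and 4.88 CPM in WT. The groups did not overlap, but the highest WT library came close to the lowest STAT6-/- library. This was a log2 fold change of 1.63 ± 0.39 (SE; edgeR adjusted p = 0.0296), a 3.09-fold rise. Its call was the least stable of the 5. The adjusted p passed the threshold without STAT6-/- replicate 2 (0.0126) and was 0.0737 and 0.0544 without STAT6-/- replicates 1 and 3, and 0.0849, 0.121 and 0.075 without WT replicates 1, 2 and 3.

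**Figure D3:**
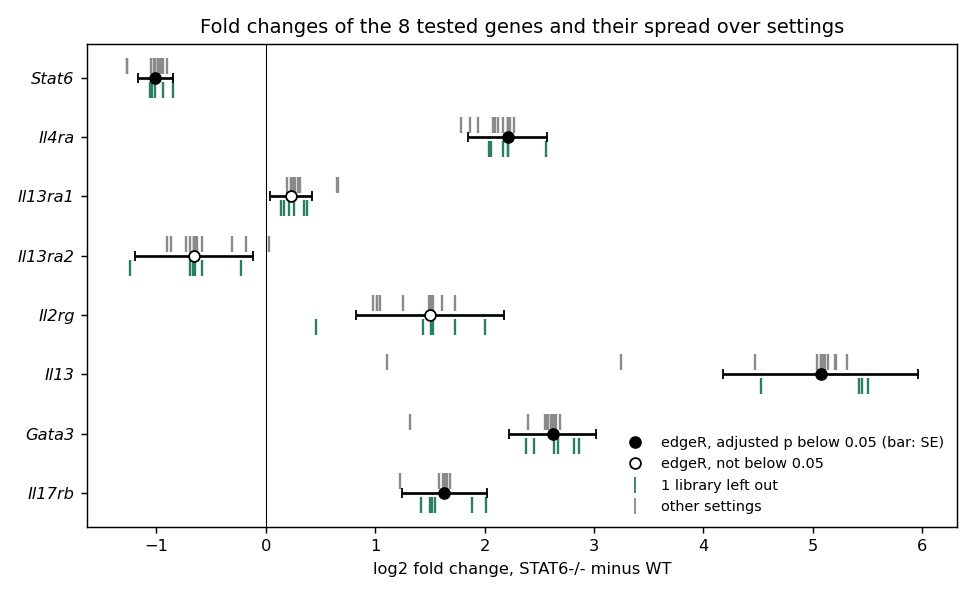
Log2 fold changes (STAT6-/- minus WT, with SE) of the 8 tested genes by edgeR, filled where the adjusted p was below 0.05, with green ticks for fits that left out 1 library and grey ticks for the other settings. Stat6 lies below 0 and Il4ra, Il13, Gata3 and Il17rb lie above 0 in every setting drawn, whereas Il13ra2 runs from -1.24 to 0.03 and Il2rg from 0.46 to 2.00.

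Markers of the cells that could carry these genes moved unevenly. Of 10 ILC2 markers 7 were tested: Nmur1, a neuromedin receptor of gut ILC2, rose with 2.94, 1.62 and 0.952 CPM in STAT6-/- and 0, 0.186 and 0 CPM in WT (edgeR adjusted p = 0.0211). Il1rl1, the IL-33 receptor, and Klrg1 also rose, while Rora fell from 19.3 ± 4.61 to 8.05 ± 2.5 CPM (adjusted p = 0.0301). These were 3 rises and 1 fall, where 11.4% of all tested genes were higher and 11.5% lower. DESeq2 called 4 rises in this list (18.1% of all genes). Limma-voom (9.6%) and the replicate block (8.09%) each called 1. No rise was called without any 1 of the WT libraries (4.25% of all genes or fewer). The whole ILC2 list summed to 79.4, 45.8 and 131 CPM in STAT6-/- and 38.9 to 52.3 CPM in WT. In STAT6-/- replicate 3 a single marker of the list, Hs3st1, held 68.1 of the 131 CPM. It stood at 12.4 and 10.7 CPM in replicates 1 and 2 and did not pass (edgeR adjusted p = 0.12). Of 10 T cell markers Cd3e, Cd2 and Zap70 rose, where 11.4% of all tested genes did. DESeq2 called 7 of the T cell markers higher (18.1% of all genes). None was called by limma-voom (9.6%), both log2 FPKM scales (10.4% and 11.2%), the replicate block (8.09%) or 5 of the 6 fits with 1 library left out. No marker of the T cell or ILC2 list was at 0 in all libraries, but the ILC2 markers Ptgdr2, Ccr8 and Calca were too rare to be tested. Ptgdr2 had 3.19 counts or fewer in every library. STAT6-/- replicate 2, the library with the most Il13 and Il5, had T cell and ILC2 sums within the WT range. The single ILC2 markers did not follow that sum. Of those tested, Nmur1, Klrg1, Il1rl1, Bcl11b and Hs3st1 lay above every WT library in this replicate, and Rora and Il7r below. Il1rl1 stood there at 5.27 CPM (2.96 to 3.41 in WT) and Rora at 5.53 CPM (14.0 to 22.3 in WT). The listed markers of tuft cells, the epithelial cells that make IL-25, summed to 37.8 to 73.2 CPM in STAT6-/- and 48.0 to 54.2 CPM in WT. Of 8 eosinophil and basophil markers 3 were tested, and 1 rose, where 11.4% of all tested genes did. This was the chemokine receptor gene Ccr3, at 4.39, 0.992 and 2.33 CPM against 0, 0.186 and 0.170 CPM (edgeR adjusted p = 0.0207). Siglecf of the same list stood at 1.96 to 2.43 CPM in STAT6-/- and 1.89 to 2.10 CPM in WT, and the granule genes Epx and Prg2 at 0.496 CPM or less in every library. Nmur1, Klrg1 and Ccr3 passed the filter on low counts only through the STAT6-/- group, as Il13 did. The part of these cells in the results was not tested.

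**Figure D4:**
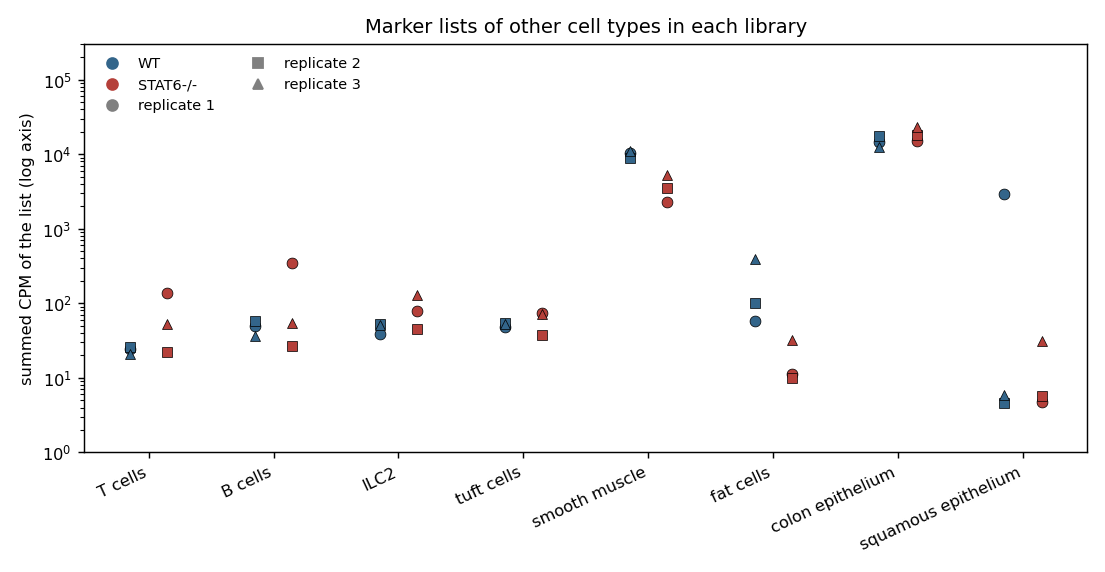
Summed CPM (log axis) of 8 fixed marker lists in each WT and STAT6-/- library. STAT6-/- replicate 1 (circle) stands out for T and B cell markers, WT replicate 1 for squamous epithelium markers, and all STAT6-/- libraries lie below all WT libraries for smooth muscle and fat cell markers.

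The other chains and signals that feed the same cells were read from a list of alarmins, their receptors and further type 2 cytokines. Of 18 genes 15 were listed and 12 tested, and 5 receptor genes rose while none fell (11.4% and 11.5% of all tested genes), with a median log2 fold change of 1.14 against 0.01 over all tested genes. The number that rose was 8 by DESeq2 (18.1% of all genes), which also called 1 fall (16% of all). It was 2 by limma-voom (9.6%) and 3 with the replicate block (8.09%). Without STAT6-/- replicate 1 or any 1 of the WT libraries it was 0 (6.81% of all or fewer). Il17ra, which pairs with Il17rb to bind IL-25, rose 2.03-fold (40.2, 25.2 and 43.5 CPM against 16.6, 18.2 and 18.8 in WT, edgeR adjusted p = 0.0243). Csf2rb, the signalling chain of the IL-5 receptor, rose 7.20-fold (72.5, 11 and 65.5 CPM against 7.22, 6.08 and 7.37, adjusted p = 0.026). Il1rl1 rose 7.43-fold (33.9, 5.27 and 33.2 CPM against 2.96, 3.41 and 3.35, adjusted p = 0.0263), and Csf2rb2, a close copy of Csf2rb whose reads may be shared with it, rose 7.36-fold. Crlf2, the TSLP receptor chain, also rose. In the Il1rl1, Csf2rb and Csf2rb2 rises STAT6-/- replicate 2 was far below its group, as for Il4ra.

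The alarmins themselves did not pass. Il33 stood at 17.8, 4.18 and 38.8 CPM in STAT6-/- and 90.1, 14.3 and 20.3 in WT, with the highest value in the library that held squamous epithelium. Tslp had a log2 fold change of -0.42 ± 0.45 (edgeR adjusted p = 0.503). Il25 was near the limit of detection, with 0.118, 0.186 and 0.0567 CPM in WT and no counts in STAT6-/-, where 3 counts per library would be 0.14 to 0.159 CPM, so that no difference was detectable at this depth. Over all libraries the most abundant gene of the list was Areg, below Il33 in the WT mean, an epidermal growth factor family ligand made by ILC2 and epithelium, at 53.5 ± 23.4 against 24.7 ± 5.68 CPM (adjusted p = 0.0554).

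Other genes of the common gamma chain family included both receptors and ligands. Of 9 genes 8 were tested, with 1 higher (11.4% of all tested genes were) and 2 lower (11.5% of all) and a median log2 fold change of 0.45. Il2rb, the beta chain of the IL-2 and IL-15 receptors, rose 6.71-fold (18.5, 3.29 and 14.6 CPM against 2.13, 1.86 and 1.42, edgeR adjusted p = 0.0263). The ligands Il15 and Il7 fell. Il15 stood at 4.57, 8.20 and 3.76 CPM in STAT6-/- and 21.4, 21.4 and 24.9 CPM in WT, a 4.09-fold fall (adjusted p = 0.0125), and Il7 fell 2.55-fold (adjusted p = 0.0313, or 0.109 with GC content and length trends removed). Il21r had a log2 fold change of 2.92 ± 0.94 that did not pass (adjusted p = 0.0623).

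Downstream of the receptors, 24 kinases, adaptors and regulators were all tested. Of these 10 rose and 1 fell (11.4% and 11.5% of all tested genes), with a median log2 fold change of 0.54. With GC content and length trends removed 7 rose and none fell (9.33% and 6.03% of all tested genes). With the replicate block as well 4 rose and none fell (5.74% and 3.94%). The suppressor Socs3 rose 16.7-fold (192, 52.3 and 245 CPM against 14.2, 7.14 and 7.83, edgeR adjusted p = 0.0121), and Socs1, which blocks JAK kinases and is induced by interferons and by IL-4, rose 8.28-fold (65.1, 20.5 and 32.7 CPM against 3.67, 7.45 and 3.18, adjusted p = 0.0149). Parp14, an interferon-inducible enzyme known as a cofactor of STAT6, was the most abundant of the list over all libraries, though below Jak1 and Jak2 in WT, and rose 2.63-fold to 280 ± 35.2 CPM (adjusted p = 0.0138).

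The 4 JAK family kinases sit on the receptor chains. Jak3, which binds the common gamma chain, rose 6.20-fold (84.8, 28.1 and 35.7 CPM against 8.81, 8.38 and 6.81, edgeR adjusted p = 0.0138), or 2.03 on the log2 scale without STAT6-/- replicate 1 in place of 2.63. Tyk2, which binds Il13ra1, rose 1.58-fold (58.2, 51.5 and 59.2 CPM against 34.1, 38.3 and 34.7, adjusted p = 0.0184), a log2 fold change of 0.66 that was 0.31 with GC content and length trends removed and did not pass (adjusted p = 0.106). Jak1, which binds Il4ra, stood at 183, 137 and 204 CPM against 172, 216 and 169, and Jak2 at 101, 80.5 and 168 against 128, 137 and 109. Neither Jak1 nor Jak2 passed (adjusted p = 0.764 and 0.818). The docking proteins Irs1 and Irs2, which link Il4ra to insulin-type signalling, had log2 fold changes of -0.72 ± 0.25 and -0.60 ± 0.27 and did not pass (adjusted p = 0.077 and 0.145). The single fall was that of Pik3ca, a catalytic subunit of phosphoinositide 3-kinase named after its value was seen, by 1.51-fold (adjusted p = 0.0338). It was -0.16 on the log2 scale with GC content and length trends removed and did not pass (adjusted p = 0.41).

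**Figure D5:**
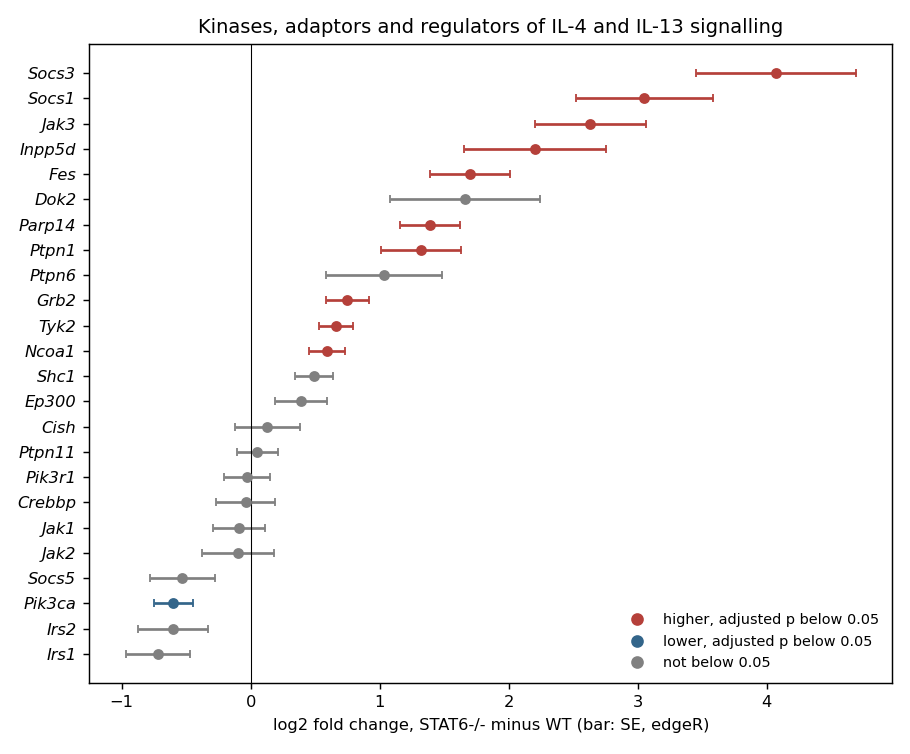
Log2 fold changes (STAT6-/- minus WT, bars are SE, edgeR) of the 24 kinases, adaptors and regulators, coloured by whether the adjusted p was below 0.05. Socs3, Socs1 and Jak3 are the 3 highest, Jak1 and Jak2 lie close to 0, and Pik3ca is the only gene that passed on the lower side.

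Genes known to be induced by STAT6 did not move as 1 group. Of 25 genes 19 were tested, 4 rose and 2 fell (11.4% and 11.5% of all tested genes), and the median log2 fold change was -0.01. Neither fall passed with GC content and length trends removed (Ccl24 adjusted p = 0.0563, Clca1 adjusted p = 0.0565). The macrophage chemokine gene Ccl8 rose 9.71-fold (48.6, 19.9 and 68.6 CPM against 3.79, 4.47 and 5.84, edgeR adjusted p = 0.0112), and the goblet cell peptide gene Retnlb stood at 203, 109 and 25.2 CPM against 10.2, 2.92 and 1.48 (adjusted p = 0.023). Socs1, given above, and Flt1 were the other rises. The eosinophil chemokine gene Ccl24 fell, from 2.31, 4.03 and 7.26 CPM in WT to 0.327, 0.157 and 1.06 CPM (adjusted p = 0.0294). Ccl24 passed the filter on low counts only through the WT group (7, 3 and 20 counts in STAT6-/-), so that its call was partly fixed by the filter. Clca1, the mucus protein gene and the most abundant of the list, fell from 11630, 10180 and 10260 CPM to 1863, 3472 and 468 CPM (adjusted p = 0.0391). The log2 fold changes of Retnlb (4.53) and Clca1 (-2.47) depended on single libraries, being 3.83 for Retnlb when STAT6-/- replicate 1 was left out, 5.68 when WT replicate 1 was, and -3.16 for Clca1 without STAT6-/- replicate 2. That of Ccl24 (-3.13) was -4.14 without STAT6-/- replicate 3. The macrophage genes Arg1 and Retnla, named after their values were seen, did not pass (adjusted p = 0.146 and 0.12) and varied between WT libraries, Retnla from 9.52 to 98.4 CPM. Arg1 stood at 0.887, 0.783 and 2.33 CPM in STAT6-/- and 23.5, 0.993 and 1.59 CPM in WT. Its highest value was in WT replicate 1, the library that held squamous epithelium.

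In all, 26 genes passed in these 6 lists (signalling, STAT6-induced, alarmin, gamma chain and both sets of neighbours). They were picked because they passed with all 6 libraries. A share above that of all genes in the fits below was thus fixed in advance, and says nothing about these genes. All 26 passed without STAT6-/- replicate 2, where 33.9% of all tested genes did, and 18 passed without STAT6-/- replicate 3 (22.6% of all). With STAT6-/- replicate 1 left out 10 passed (11.7% of all), and with WT replicate 1 left out 8 (9.12%). None passed by edgeR with WT replicate 2 or WT replicate 3 left out, where 0.2% and 0.117% of all tested genes did. Among the 10 genes of the axis, DESeq2 and the fit with a replicate block each gave 4 rises and 1 fall, with 34% and 17.7% of all genes called, and a filter of 1 CPM in 3 libraries, which Il13 missed, gave 3 rises and 1 fall with 24.4% called. Of the 26 list genes 19 passed with the replicate block, 18 with GC content and length trends removed, and 9 with both, where 9.68% of all genes passed.

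The genes whose levels ran closest to these over the 6 libraries were sought among 13062 genes by Pearson's r of log2 CPM, which is a description over libraries that share their 2 groups. For Il4ra they were Lif, a cytokine of the IL-6 family (r = 0.9989), Ly6c1, a surface protein of endothelium and monocytes (0.9987), and Slfn1, a lymphocyte Schlafen gene (0.9981). Lif stood at 14.8, 5.90 and 17.1 CPM in STAT6-/- and 2.31, 2.23 and 2.27 CPM in WT, with the same low replicate 2 as Il4ra. For Gata3 they were the MHC class I gene H2-D1 (0.9991), Phrf1 (0.9989) and Lratd2 (0.9985). For Stat6 they were Uba3, an enzyme that activates NEDD8 (0.9987), Cep120, a centriole protein (0.9942), and Lin7a (0.9941). The closest to Il13ra1 were less close: Rps6kc1 at 0.973, Bcar3 at 0.9599 and Klhl15 at 0.9467.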

How the data were processed

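RNA sequencing gave 1 table per library for 3 STAT6-/- and 3 WT colon samples. The authors deposited expected counts, which the file headers give per RefSeq transcript and which carry no scaling between libraries. They also deposited FPKM, in which length and library size are divided out, per the file headers. The submitters' processing notes name Bowtie2 2.2.5, RSEM 1.2.12 and mm10. No transcript below 0.01 FPKM is listed, and an absent one was taken as 0.

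Counts were summed per gene (27986 of 28238 transcripts named from RefSeq, 149 from GENCODE M21) and rounded. The 103 unnamed transcripts, with 0.167% of the counts, were kept as separate entries. edgeR 4.0.16 in R 4.3.3 was used with TMM factors, filterByExpr and its robust quasi-likelihood test, after it was tested on simulated data. CPM are TMM-scaled, and an SE is the log2 fold change over the square root of F. A gene "rose" or "fell" at an adjusted p below 0.05. Precision is limited by depth: 3 counts are 0.153 to 0.175 CPM before scaling. Intervals and that limit cover counting error only.

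The 10 genes, the lists and the tests were chosen with earlier results of these data known. All 10 were named. From each list the most abundant gene and up to 4 past the threshold, by smallest p, were named, and other names were chosen by role or after their values were seen. The 3 genes most like a member had to reach 1 on average in log2 CPM (prior count 2). Alternatives were other scalings, filters and tools (DESeq2 1.42.0, limma 3.58.1), log2 FPKM with 1 or 0.1 added, removal of genes above 1% of a library, removal of each library in turn, and a replicate block. A fit with GC content and length trends removed, alone and with the block, was added after seeing the data. Figures were drawn with matplotlib 3.10.9. The result of 1 listed gene is not reported here.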

Additional observations from a re-analysis of the deposited data

How the results depend on the processing

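Nearly all calls were lost when WT replicate 2 or 3 was left out. With 1 library left out, the number of genes that changed ran from 18 (without WT replicate 3) to 5190 (without STAT6-/- replicate 2), against 3449 with all 6 libraries. Among the 10 genes described, the number ran from 0 to 5, against 5. It was 0 without WT replicate 2 or 3, and 3 without STAT6-/- replicate 1. In both of the former fits edgeR gave 6 of 9 tested members an unadjusted p under 0.05. Over all tested genes it gave 4370 of 15497 and 4285 of 15395 such a p, respectively. With 6 libraries, the other scalings (22.4 to 23.1% of all genes called), the fit without robust estimation and DESeq2 also gave 4 rises and 1 fall. The counts were 5 and 1 with no filter, which added Il5, and 3 and 1 with a filter of 1 CPM in 3 libraries, which Il13 did not pass. With GC content and length trends removed, a setting chosen after seeing the data, 1406 genes were higher and 908 lower, against 1718 and 1731, and Il13ra1 joined the rises, though not with the replicate block as well. Il13ra2 changed sign there, to 0.03. DESeq2 called 5116 genes, within 1.5 times the main number. The replicate block gave 2664 genes and the same 5 in number here, and with GC content and length trends removed as well it gave 1458 genes. Whether the numbers pair the samples is not given by the labels. Correlations of same-numbered deviations were 0.023, 0.044 and 0.134, and those of unlike numbers ran from -0.109 to 0.054. Not every sample correlated best with its own number, and with 3 samples per group such values can neither show nor exclude pairing. No scaling moved the median log2 fold change of all genes by over 0.1. Depth limited Il4, Il5 and Il25, which had 0 to 17 counts per library.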
